A study of Mus musculus with 12 samples.

Results

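The ERK feedback phosphatases and Sprouty genes considered here are 9 mouse genes, Dusp1, Dusp4, Dusp5, Dusp6, Dusp14, Spry2, Spry4, Spred1 and Spred2, of the 19938 genes that could be named on the array. Members were taken as the probe sets whose only gene symbol is one of these names, which gave 10 of 28853 probe sets, and the 2 probe sets of Spred2 were averaged. The rule uses gene names alone, but the members were chosen with earlier results of these data known. RNA came from the anterior striatum, the forward part of a forebrain structure that takes part in reward learning, of adolescent male mice of the outbred Swiss CD-1 stock. During a 10-day conditioned place preference procedure, in which an animal learns to link a compartment with a drug, the mice received mephedrone + ethanol, mephedrone, ethanol or saline. Dosing preceded the drug-paired compartment by 15 minutes, and each of the 4 groups was measured on 3 arrays. Mephedrone is a synthetic cathinone, a psychostimulant that releases monoamines, and the saline mice received neither drug. All mice, saline mice included, went through the place preference procedure, and no genetic change was introduced. The doses, the time of death and the number of animals behind an array are not given in the sources used here.

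ERK signalling runs from growth factors, neurotrophins and, in striatal neurons, dopamine and glutamate receptors through Ras, Raf and MEK to the ERK kinases. Active ERK turns on transcription of genes that shut the pathway off again, so the transcripts of several of these inhibitors are used as a read-out of recent ERK activity. The dual-specificity phosphatases encoded by Dusp genes remove phosphate from mitogen-activated protein kinases, whereas Sprouty and Spred proteins act upstream of ERK, between the receptor and Raf.

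Promoter sequence is shown for 3 members, Dusp6 because it had the smallest p-value of the members in most comparisons below, and Dusp1 and Dusp5 because theirs were the scanned promoters that held a full cAMP response element or a CArG box. The sequences are the RefSeq windows from 250 bases before to 50 bases after the annotated gene start on GRCm38.p6, a later build than the mm8 named in the submitters' processing notes. They are written 5′ to 3′ on the strand of the gene, for Dusp1 at chr17:26508423-26508722 (minus strand), for Dusp5 at chr19:53528895-53529194 (plus strand) and for Dusp6 at chr10:99262981-99263280 (plus strand). Capitals mark a cAMP response element or its core TGACG, or a CArG box, the element bound by serum response factor.
Dusp1: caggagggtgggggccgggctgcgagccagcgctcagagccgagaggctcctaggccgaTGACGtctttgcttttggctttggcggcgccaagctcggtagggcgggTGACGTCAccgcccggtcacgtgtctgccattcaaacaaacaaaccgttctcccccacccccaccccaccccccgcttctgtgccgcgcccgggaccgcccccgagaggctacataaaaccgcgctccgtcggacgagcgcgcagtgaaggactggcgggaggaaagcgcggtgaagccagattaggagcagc
Dusp5: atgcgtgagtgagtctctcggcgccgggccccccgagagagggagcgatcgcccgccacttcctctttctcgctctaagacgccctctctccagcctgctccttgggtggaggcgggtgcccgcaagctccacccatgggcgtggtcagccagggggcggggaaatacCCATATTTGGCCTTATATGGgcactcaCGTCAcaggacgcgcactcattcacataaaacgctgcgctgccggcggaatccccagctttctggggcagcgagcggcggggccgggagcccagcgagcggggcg
Dusp6: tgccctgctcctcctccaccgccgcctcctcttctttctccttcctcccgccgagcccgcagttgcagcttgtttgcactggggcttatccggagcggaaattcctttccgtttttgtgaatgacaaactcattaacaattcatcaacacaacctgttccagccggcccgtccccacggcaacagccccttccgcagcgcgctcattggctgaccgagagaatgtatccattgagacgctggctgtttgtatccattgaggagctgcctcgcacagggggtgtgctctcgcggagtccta

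Of the members, 7 had a promoter entry that was scanned on both strands, while Dusp4 and Spry4 were not scanned. The cAMP response element TGACGTCA stood in the Dusp1 promoter, from position -143 to -136 counted from the gene start, and this promoter also held the core TGACG, read on either strand, at position -191. The full element was present in 1.79% of 32851 promoters of the same length and the core, which overlaps the full element, in 20.8%. The Dusp5 promoter held 2 adjoining CArG boxes, CCATATTTGG and CCTTATATGG, and the core between positions -55 and -51. A CArG box was found in 1.63% of all promoters. Spred2 held the core, and Dusp14 and Spry2 each held the ETS core CCGGAA, which occurred in 14.9% of promoters. Neither the AP-1 site TGANTCA nor the Egr site GCGTGGGCG was found in any of the 7 windows; they occurred in 7.81% and 0.612% of all promoters. The windows of Dusp6 and Spred1 held none of the 6 motifs. These are matches of letters within 300 bases and are not evidence of binding.

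The deposited values are log2 expression values from which each probe set's median over the 12 arrays had been subtracted, so 0 is the middle array for that gene and levels cannot be compared between genes. The step between neighbouring values, set by single-precision storage, still shows in which range the level lay before centring. For 9 of the 10 member probe sets it lay between 8 and 16 on the log2 scale, and for Dusp4 between 4 and 8, the range that held 53.4% of all probe sets. All 12 measured marker probe sets of striatal projection neurons lay in the upper range, whereas of 9 choroid plexus marker probe sets 1 lay there, 5 lay in the lower range and 3 were not settled. Some arrays stood apart. Over all probe sets, mephedrone + ethanol replicate 3 had an SD of 0.169 and ethanol replicate 1 one of 0.127, while the remaining 10 arrays had 0.068 to 0.102. In mephedrone + ethanol replicate 3 the markers of choroid plexus, the tissue that secretes cerebrospinal fluid, averaged 2.13, those of cortical excitatory neurons 0.86 and those of striatal projection neurons -0.31. Choroid plexus markers were also raised in every group: 1.27 on saline replicate 2, 0.98 on ethanol replicate 1, 0.76 on mephedrone replicate 1 and 0.74 on mephedrone + ethanol replicate 2. On ethanol replicate 1 the striatal projection neuron markers averaged -0.19, with 0 of 12 above 0. Saline replicate 1 differed from the other saline arrays in the members themselves. It had 9 of 9 members above 0, whereas saline replicates 2 and 3 had 1 and 4.

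The ERK feedback genes had their highest group means with ethanol alone. The group mean was highest with ethanol alone for 9 of the 9 members, and it was lowest with mephedrone + ethanol for 5, with mephedrone for 2 and with saline for 2. How many of all genes had their highest mean with ethanol was not computed. Of all genes, 58.9% were higher with ethanol than with saline. Against ethanol, 52.5% of all genes were lower with mephedrone and 50.4% with mephedrone + ethanol. On single arrays, 3, 4 and 0 members lay above 0 with mephedrone + ethanol, 0, 4 and 4 with mephedrone, 9, 8 and 9 with ethanol, and 9, 1 and 4 with saline. Saline replicate 1, with a member median of 0.15, was above ethanol replicate 2, with 0.12, so single arrays did not all follow the order of the group means. Over all 12 arrays the SD of Dusp1 was larger than that of 98.3% of all genes, of Spry4 than 97.2%, of Dusp14 than 97.1% and of Dusp6 than 93.9%, while Spred1 varied least of the members, at 60.6%. No member passed the adjusted threshold of 0.05 in limma's moderated test in any of 10 comparisons, so the differences below are given as values.

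**Figure D1:**
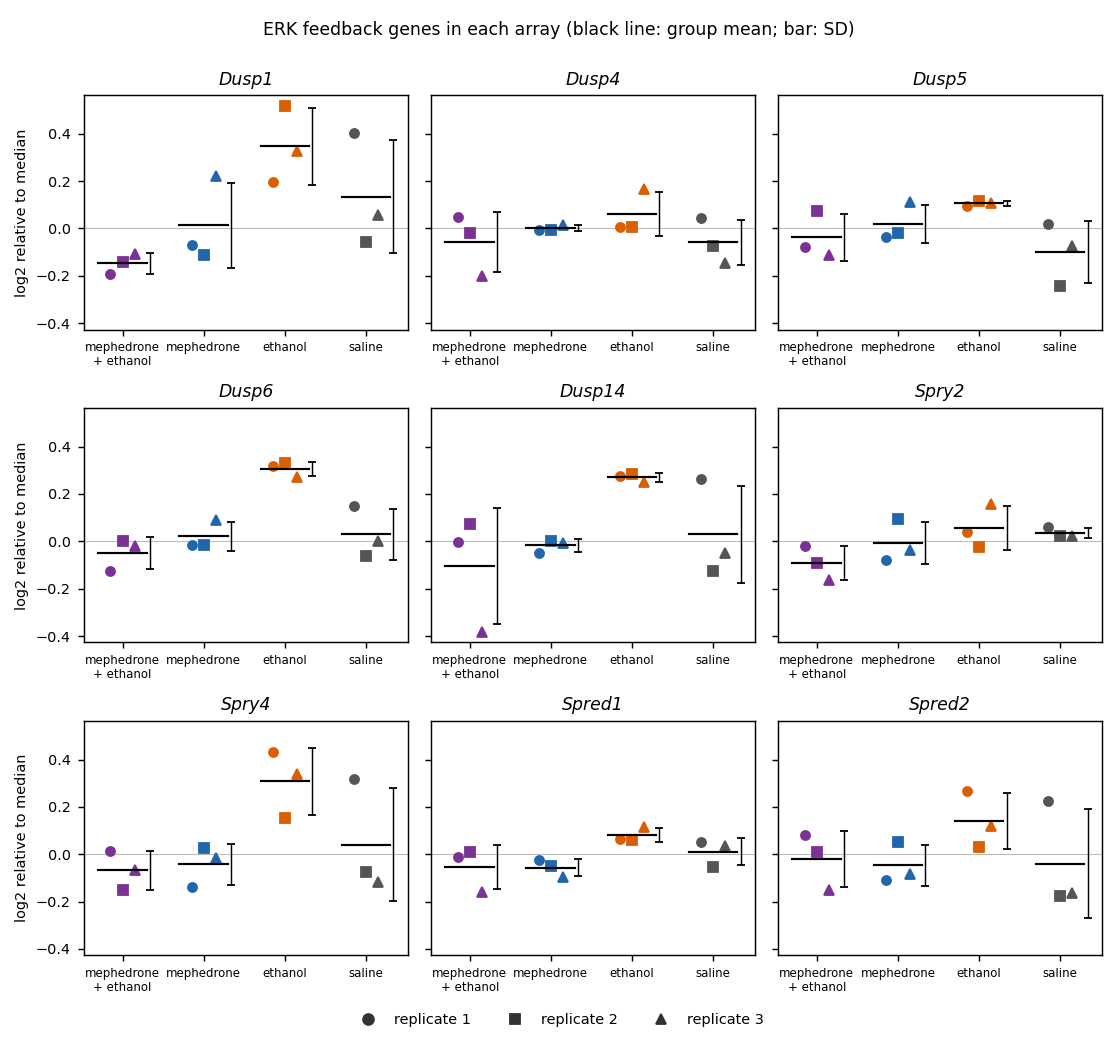
Centred log2 expression (vertical axis) of each of the 9 genes on every array, with mephedrone + ethanol, mephedrone, ethanol and saline from left to right; points are arrays and horizontal lines are group means of 3 arrays. The ethanol mean is the highest of the 4 in every panel, and 1 saline array (replicate 1) lies above the other 2 in every panel.

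Dusp6 encodes a cytoplasmic phosphatase that is selective for ERK and is a widely used ERK target gene. Its centred log2 values were -0.13, -0.00016 and -0.019 with mephedrone + ethanol, -0.016, -0.013 and 0.092 with mephedrone, 0.32, 0.33 and 0.27 with ethanol, and 0.15, -0.062 and 0.00016 with saline. The 3 ethanol arrays were the highest of the 12 and did not overlap with those of any other group, while the other 3 groups overlapped. Dusp6 averaged -0.048 ± 0.068 with mephedrone + ethanol and 0.31 ± 0.031 with ethanol (SD, n = 3 each). That is a difference of -0.35 on the log2 scale (SE 0.057, 95% interval -0.48 to -0.23), or 0.782 times the ethanol level, with an adjusted p of 0.108 in limma. By unadjusted p, 5.25e-05, it ranked 9 of the 19938 genes in that comparison.

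Dusp1, also known as MKP-1, is an immediate early gene whose nuclear product acts on ERK, p38 and JNK. It read -0.19, -0.14 and -0.11 with mephedrone + ethanol, -0.068, -0.11 and 0.22 with mephedrone, 0.20, 0.52 and 0.33 with ethanol, and 0.40, -0.058 and 0.058 with saline. All 3 mephedrone + ethanol arrays were below all ethanol and all saline arrays, and the ethanol arrays overlapped with those of saline and of mephedrone. Its difference between mephedrone + ethanol and ethanol was the largest of the 9, -0.49 (SE 0.12, 95% interval -0.76 to -0.23; 0.71-fold; limma adjusted p = 0.244).

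Dusp5 encodes a nuclear phosphatase specific for ERK. It ranged from -0.11 to 0.074 with mephedrone + ethanol, from -0.036 to 0.11 with mephedrone, from 0.093 to 0.12 with ethanol and from -0.24 to 0.018 with saline. The ethanol arrays were above all mephedrone + ethanol and all saline arrays and overlapped with the mephedrone arrays. Dusp4, a nuclear phosphatase of the same subfamily as Dusp1, ranged from -0.20 to 0.048 with mephedrone + ethanol, from -0.0074 to 0.015 with mephedrone, from 0.0058 to 0.17 with ethanol and from -0.15 to 0.044 with saline, and all groups overlapped. Dusp14, also known as MKP6, is a small phosphatase that lacks the amino-terminal kinase-binding domain of the MKPs. It gave -0.003, 0.074 and -0.38 with mephedrone + ethanol, -0.048, 0.003 and -0.0056 with mephedrone, 0.28, 0.29 and 0.25 with ethanol, and 0.26, -0.12 and -0.051 with saline. The lowest value belonged to mephedrone + ethanol replicate 3, the array with the highest choroid plexus and cortical markers, and the ethanol arrays lay close together without overlapping either mephedrone group. The difference between mephedrone + ethanol and ethanol was -0.37 (SE 0.11; limma adjusted p = 0.329) for Dusp14, against -0.14 (SE 0.068) for Dusp5 and -0.12 (SE 0.069) for Dusp4. Without mephedrone + ethanol replicate 3 it was -0.24 for Dusp14 and -0.047 for Dusp4, and without ethanol replicate 3 it was -0.064 for Dusp4.

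Sprouty proteins are induced by receptor tyrosine kinase signalling and inhibit it. Spry4 was at 0.014, -0.15 and -0.068 with mephedrone + ethanol, -0.14, 0.025 and -0.014 with mephedrone, 0.43, 0.15 and 0.34 with ethanol, and 0.32, -0.074 and -0.12 with saline. All ethanol arrays were above all arrays of both mephedrone groups, and saline replicate 1 lay among the ethanol arrays. The difference was -0.38 (SE 0.11; 0.771-fold; limma adjusted p = 0.312) between mephedrone + ethanol and ethanol. Spry2 differed less: it ranged from -0.16 to -0.021 with mephedrone + ethanol, from -0.077 to 0.094 with mephedrone, from -0.025 to 0.16 with ethanol and from 0.021 to 0.06 with saline, with a difference of -0.15 (SE 0.058) between mephedrone + ethanol and ethanol, or -0.097 without ethanol replicate 3. All Spry2 values with mephedrone + ethanol were below those with saline, while they overlapped with those of ethanol.

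Spred proteins bind neurofibromin, a GTPase-activating protein of Ras, and hold back Raf activation. Spred1 gave -0.011, 0.011 and -0.16 with mephedrone + ethanol, -0.024, -0.051 and -0.095 with mephedrone, 0.065, 0.06 and 0.11 with ethanol, and 0.051, -0.056 and 0.036 with saline. The 3 ethanol arrays were the highest of the 12, by a small margin: ethanol replicate 2 was at 0.06 and the nearest saline array at 0.051. The difference between mephedrone + ethanol and ethanol was -0.13 (SE 0.049; limma adjusted p = 0.414), and -0.080 without mephedrone + ethanol replicate 3. Spred2 ranged from -0.15 to 0.081 with mephedrone + ethanol, from -0.11 to 0.051 with mephedrone, from 0.032 to 0.27 with ethanol and from -0.18 to 0.22 with saline. All groups overlapped for Spred2, and its 2 probe sets gave -0.13 and -0.19 for mephedrone + ethanol against ethanol. The gene's difference of -0.16 was -0.095 without ethanol replicate 1 and -0.093 without mephedrone + ethanol replicate 3.

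The comparison of mephedrone + ethanol with ethanol shows what mephedrone added in mice that also had ethanol. Of the 9 members, 0 were called at an adjusted p under 0.05, where 0.0251% of all genes were called. The difference was below 0 for 9 members, with a median of -0.16, against 50.4% of all genes and a median of -0.00067. At an unadjusted p under 0.05, 6 members were lower, namely Dusp1, Dusp6, Dusp14, Spry2, Spry4 and Spred1, where 4.41% of all genes were lower and 5.31% higher. The arrays of the groups did not overlap, with mephedrone + ethanol lower, for 6 members, Dusp1, Dusp5, Dusp6, Dusp14, Spry4 and Spred1, and for 6.78% of all genes. Members varied together over arrays, so such counts do not rest on 9 separate observations. The members were also chosen with earlier results of these arrays known, so their direction is not independent of them. The labels do not say that the arrays of a group came from separate mice, so every p-value rests on the scatter among these samples alone, and that scatter may be technical. In bulk tissue, fewer cells of a type that expresses a gene and less RNA per cell cannot be told apart.

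Without mephedrone + ethanol replicate 3 and ethanol replicate 1, both of which stood apart, 4 members were lower at an unadjusted p under 0.05 in this comparison. Dusp6 was then at -0.36 and Dusp1 at -0.59, whereas Dusp14 was at -0.23, Spred1 at -0.088, Dusp4 at -0.073 and Spred2 at -0.030, and all 9 members were still below 0 (median -0.12). The share of all genes at an unadjusted p under 0.05 was not computed in this or any other alternative setting. Dusp6 passed the adjusted threshold in 2 of the 20 other settings tried for this comparison, at -0.36 with array weights (limma adjusted p = 0.0307) and at -0.35 without saline replicate 1 (0.0323). Over all genes, 37 were called with array weights and 19 without saline replicate 1, against 5 in the fit reported here. Over all 20 settings its difference kept between -0.39 and -0.32, with adjusted p-values between 0.0307 and 0.408.

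Mephedrone alone was also set against ethanol alone. These values use the same ethanol arrays as the preceding comparison and are not separate evidence. Dusp6 differed by -0.29 (SE 0.057, 95% interval -0.41 to -0.16; limma adjusted p = 0.398), which ranked 16 of all genes by p. Spry4 differed by -0.35 (SE 0.11), Dusp1 by -0.33 (SE 0.12), Dusp14 by -0.29 (SE 0.11) and Spred1 by -0.14 (SE 0.049). These were the 5 members with an unadjusted p under 0.05, against 3.02% of all genes in that direction, and 0 were called after adjustment, as was 0% of all genes. The count was 3 without ethanol replicate 2, without mephedrone replicate 1 or without mephedrone replicate 3. The values of Dusp6, Dusp14, Spry4 and Spred1 did not overlap between the groups, against 6.7% of all genes with mephedrone lower. All 9 differences were below 0, with a median of -0.19, where 52.5% of all genes and a median of -0.0033 were found. Spred2 at -0.19, Dusp5 at -0.086, Spry2 at -0.064 and Dusp4 at -0.060 had an unadjusted p above 0.05. Without ethanol replicate 3, Spry2 was at -0.013 and Dusp4 at -0.0060.

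Ethanol against saline ran the other way, again with the same ethanol arrays. Dusp6 was 0.28 higher with ethanol (SE 0.057, 95% interval 0.15 to 0.40; 1.21-fold), which ranked 6 of all genes by unadjusted p (4.32e-04) and had an adjusted p of 0.997 in limma. Dusp5 differed by 0.20 (SE 0.068) and Spry4 by 0.27 (SE 0.11), and with Dusp6 they made up the 3 members with an unadjusted p under 0.05, against 4.07% of all genes in that direction. None of the 9 was called after adjustment, and 0% of all genes was. All 9 members were above 0 (median 0.20), as were 58.9% of all genes (median 0.011), and Dusp5, Dusp6 and Spred1 did not overlap between the groups, against 6.1% of all genes. The saline arrays did not behave alike here. Without saline replicate 1, on which 9 members lay above 0, the count at an unadjusted p under 0.05 was 7 and Dusp6 differed by 0.34 (limma adjusted p = 0.130), Spry4 by 0.40, Dusp14 by 0.36 and Dusp1 by 0.35. Without saline replicate 2 the count was 1. Since saline replicate 1 lay above the other saline arrays for every member, leaving it out raises every one of these differences. The share of all genes at that level was not computed without single arrays.

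**Figure D2:**
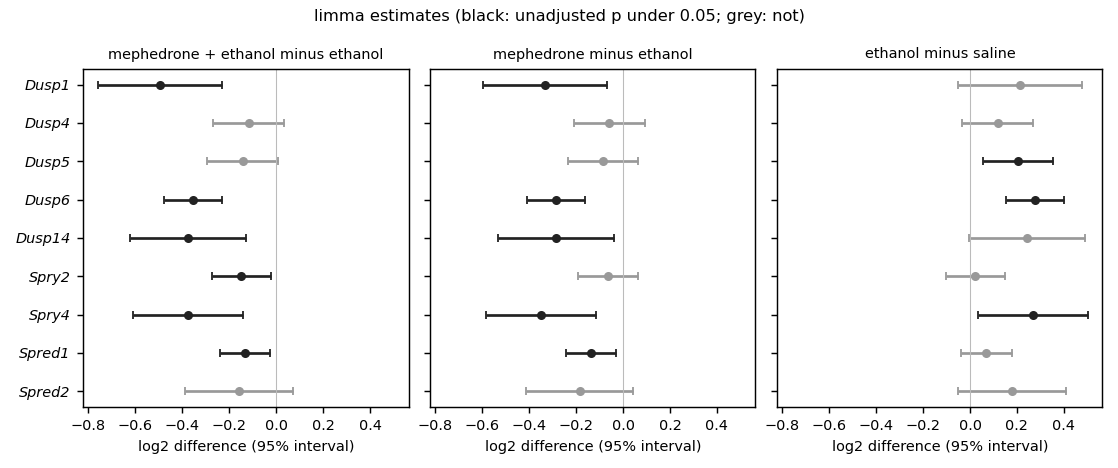
Log2 differences of the 9 genes (horizontal axis) with 95% intervals from limma in 3 comparisons, in black where the unadjusted p was under 0.05. Mephedrone + ethanol against ethanol and mephedrone against ethanol lie left of 0 for all 9 genes and ethanol against saline lies right of 0; these comparisons share the ethanol arrays.

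No member was called in either mephedrone group against saline. With mephedrone alone against saline, differences ran from -0.12 for Dusp1 to 0.12 for Dusp5, and Dusp6 differed by -0.0085 (95% interval -0.13 to 0.12). Without saline replicate 1 the Dusp1 difference was 0.013. Of the members 0 were called and 0 had an unadjusted p under 0.05, where 0% and 7.23% of all genes did. With mephedrone + ethanol against saline, Dusp1 differed by -0.28 (SE 0.12; limma adjusted p = 0.379) and was the 1 member with an unadjusted p under 0.05, against 12.1% of all genes, and 0 were called against 0.01% of all genes. Without saline replicate 1 the Dusp1 difference was -0.15 and 0 members had an unadjusted p under 0.05. Dusp1 and Spry2 were lower without overlap in that comparison, as were 5.77% of all genes. Between mephedrone + ethanol and mephedrone, differences ran from -0.16 for Dusp1 to 0.027 for Spred2. There, 0 members were called (0% of all genes) and 0 had an unadjusted p under 0.05 (3.31% of all genes).

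The factorial contrasts use all 12 arrays. In the mephedrone main effect, the average of both mephedrone groups minus the average of the ethanol and saline groups, the 9 differences were below 0 with a median of -0.10, against 46.8% of all genes and a median of 0.0038. None of the 9 was called, against 0.115% of all genes, and 6 had an unadjusted p under 0.05 and were lower, against 4.28%. Dusp6 stood at -0.18 (SE 0.040; limma adjusted p = 0.0937), Dusp1 at -0.31 (SE 0.085; 0.145) and Spry4 at -0.23 (SE 0.076; 0.215). Without both arrays that stood apart, 8 members were below 0 and 4 had an unadjusted p under 0.05. With array weights Dusp6 passed, at -0.18 and a limma adjusted p of 0.0436, in a setting that called 356 of all genes against 23 without weights. The ethanol main effect called 0 members and 0% of all genes. Dusp6 was the 1 member with an unadjusted p under 0.05 there, at 0.10 (SE 0.040; limma adjusted p = 0.941), against 4.57% of all genes, and 4 members were higher at that level without saline replicate 1.

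The interaction is the mephedrone effect with ethanol minus the mephedrone effect without it, and it tests whether the effect of mephedrone depended on ethanol. It was -0.35 for Dusp6 (SE 0.080, unadjusted p = 0.00112, rank 6 of all genes; limma adjusted p = 1.00), -0.26 for Dusp5 (SE 0.097) and -0.37 for Dusp1 (SE 0.17). These 3 members had an unadjusted p under 0.05 and were below 0, against 2.4% of all genes, and 0 were called, as was 0% of all genes. All 9 interaction values were below 0, against 55.5% of all genes. A dependence on ethanol was not called for any member, and the unadjusted count was 7 without saline replicate 1 and 1 without mephedrone replicate 3. Leaving out saline replicate 1 lowers every interaction value, since it lay above the other saline arrays for every member. In the test for any difference among the 4 groups 0 members were called, against 0.00502% of all genes, and 4 had an unadjusted p under 0.05, against 8.35%: Dusp6 (limma adjusted p = 0.183), Dusp1 (0.427), Spry4 (0.474) and Dusp14 (0.558).

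The rest of the pathway was followed in lists of genes ordered by role. Among ligands such as neurotrophins, epidermal and fibroblast growth factors, 16 of 18 listed genes were measured. For mephedrone + ethanol against ethanol 9 of the 16 lay below 0 (median -0.019), and 1 was lower at an unadjusted p under 0.05. Vegfa, a growth factor for blood vessels, differed by -0.15 (SE 0.048; limma adjusted p = 0.353) and Tgfa, a ligand of the epidermal growth factor receptor, by -0.15, which was -0.082 without mephedrone + ethanol replicate 3, -0.084 without ethanol replicate 2 and -0.23 without ethanol replicate 1. Of 18 measured receptor tyrosine kinases, 9 lay below 0 (median 0.0015), 4 were lower and 1 higher at an unadjusted p under 0.05. Flt1, an endothelial receptor of vascular endothelial growth factor, differed by -0.19 (SE 0.048) and Ntrk3, the receptor of neurotrophin-3, by -0.22 (SE 0.060), or -0.14 without mephedrone + ethanol replicate 3. Flt1 and the other 2 that were lower, Kdr and Tek, are also on the list of endothelial markers; Kdr and Tek were named after their values were seen. The adapters, exchange factors and kinases from Grb2 to MEK lay on both sides of 0: of 23 measured, 12 were below it (median -0.00037) and 1, Shc3, a neuronal adapter, was lower at an unadjusted p under 0.05 (-0.27, SE 0.071; limma adjusted p = 0.277). Shc3 was at -0.17 without mephedrone + ethanol replicate 3. Map2k2 read -0.046, -0.11 and -0.0083 with mephedrone + ethanol and 0.17, 0.0036 and 0.018 with ethanol.

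Other brakes on the pathway had medians nearer 0 than the 9 members. Of 12 further Dusp, Sprouty and Spred genes, 8 lay below 0 for mephedrone + ethanol against ethanol (median -0.035), and 2, Spred3 and Dusp3, were lower at an unadjusted p under 0.05. Spred3, the third Spred protein, read -0.039, -0.041 and -0.22 with mephedrone + ethanol, 0.039, 0.055 and -0.10 with mephedrone, 0.30, 0.16 and 0.25 with ethanol and 0.16, -0.055 and -0.051 with saline. It differed by -0.34 between mephedrone + ethanol and ethanol (SE 0.073; limma adjusted p = 0.195), a size like those of Dusp6 and Spry4, while Dusp3, a phosphatase without the kinase-binding domain, differed by -0.18 (SE 0.076). The Dusp3 difference was -0.29 without mephedrone + ethanol replicate 3 and -0.10 without replicate 2, and in the mephedrone main effect Dusp3 passed without replicate 3 (-0.23, limma adjusted p = 0.0208). Of 14 other inhibitors of the pathway 8 lay below 0 (median -0.0053), with 2 lower and 1 higher at an unadjusted p under 0.05, and without both arrays that stood apart their median was 0.034. Rasal1, a GTPase-activating protein of Ras, was at 0.28 (SE 0.10; limma adjusted p = 0.410), or 0.16 without ethanol replicate 2. Ptprr read 0.068, 0.12 and -0.028 with mephedrone + ethanol and 0.17, -0.11 and -0.088 with ethanol. None of the 5 lists named so far had a gene past the adjusted threshold in this comparison.

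The transcripts listed as ERK-responsive had the lowest median of the lists. The list includes genes induced by neuronal activity, such as Fos and Arc, and ERK activity itself was not measured. Of the 9 measured kinases and factors that ERK acts on, 6 lay below 0 (median -0.059), with Srf, the factor that binds CArG boxes, at -0.21 (SE 0.075; limma adjusted p = 0.404), or -0.12 without both arrays that stood apart. Elk1 read 0.0061, 0.031 and -0.018 with mephedrone + ethanol and -0.092, -0.0061 and -0.10 with ethanol. In the mephedrone main effect, 2 of these 9 were higher and 1 lower at an unadjusted p under 0.05. Of 25 ERK-responsive transcripts, 22 lay below 0 (median -0.24), 16 were lower at an unadjusted p under 0.05, 0 were higher and 0 passed after adjustment. Without both arrays that stood apart, 21 of the 25 lay below 0 (median -0.20) and 14 were lower at that level. Nr4a1, an orphan nuclear receptor gene, differed by -1.16 (limma adjusted p = 0.160), Arc, which encodes a regulator of synaptic receptors, by -0.70 (0.243), Vgf, a neuropeptide precursor gene, by -0.56 (0.160), Fos by -0.42 (0.252) and Egr3 by -0.30 (0.234). Of these genes, Nr4a1, Arc and Fos were named after their values were seen. Without saline replicate 1, Nr4a1 and Vgf passed in this comparison, each with a limma adjusted p of 0.0360. In the mephedrone main effect 20 of the 25 lay below 0 (median -0.15) and 15 were lower at an unadjusted p under 0.05. Vgf differed by -0.39 (limma adjusted p = 0.0751) and Egr3 by -0.27 (0.0689) in that contrast, in which Egr3 passed without ethanol replicate 1 (0.0421). The list was chosen with earlier results of these arrays known, so its direction is not independent of them.

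**Figure D3:**
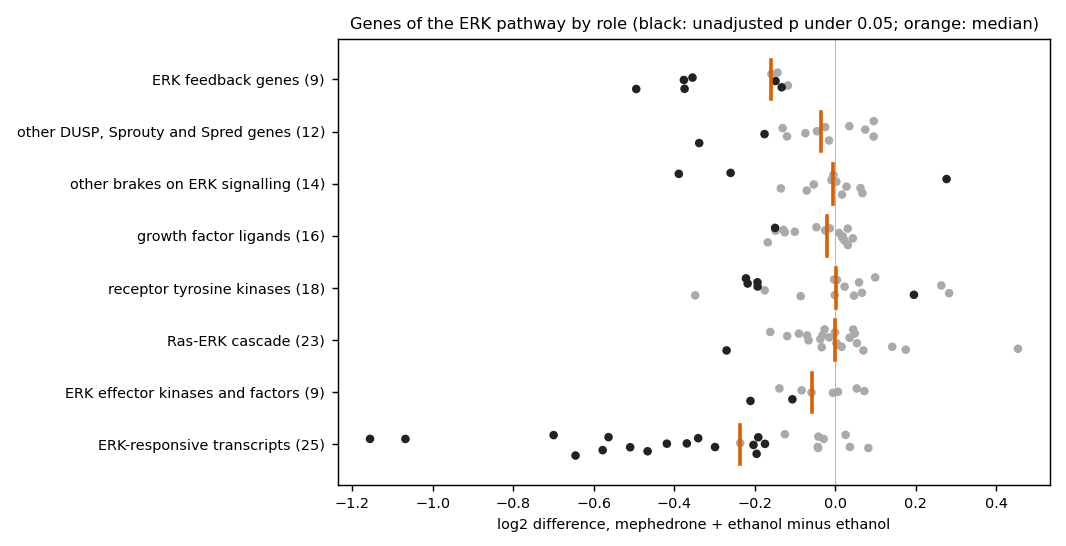
Log2 differences of the measured genes of each pathway list for mephedrone + ethanol against ethanol; points are genes, black where the unadjusted p was under 0.05, and orange bars list medians. The 9 ERK feedback genes (median -0.16) and the 25 ERK-responsive transcripts (median -0.24) lie mostly left of 0, while the lists of ligands, receptors, the Ras-ERK cascade and other brakes have medians between -0.035 and 0.0015.

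The members varied together from array to array. Of the 36 pairs, 36 had a Pearson r above 0 over the 12 arrays, with a median of 0.63. For r, 13 pairs had an adjusted permutation p under 0.05, and for Spearman's rho 9 did. The permutations moved arrays across treatment groups, so these p-values also reflect differences between groups. How often pairs of other genes correlated was not computed, so this is not shown to be particular to the members. Dusp14 and Spred1 gave r = 0.88 (adjusted permutation p = 0.00522; rho 0.79, 0.0197), and 0.77 without the 2 arrays farthest from the median of Dusp14. Dusp1 and Dusp6 gave r = 0.87 (adjusted permutation p = 0.00636; rho 0.82, 0.0174), and 0.87 without the 2 farthest arrays. Spry4 and Spred2 gave r = 0.86 (adjusted permutation p = 0.00522; rho 0.81, 0.0174), and 0.79 without them. Other pairs rested more on such arrays. Without the 2 farthest for Dusp4, its r with Spry2 went from 0.63 to -0.067 and with Spred1 from 0.63 to 0.001. Without the 2 farthest for Spry2, its r with Spred1 went from 0.64 to 0.12. The r of Dusp14 with Spry4 rose instead, from 0.76 to 0.90. Dusp5 and Spry2 were least alike, with r = 0.21 (adjusted permutation p = 0.521; rho 0.17, 0.603). After each group's mean was removed, 34 of the 36 pairs stayed above 0, with a median r of 0.46, so arrays of the same treatment also differed in these genes together. Dusp1 with Spry2 (-0.22) and Dusp6 with Spry2 (-0.26) were the exceptions.

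**Figure D4:**
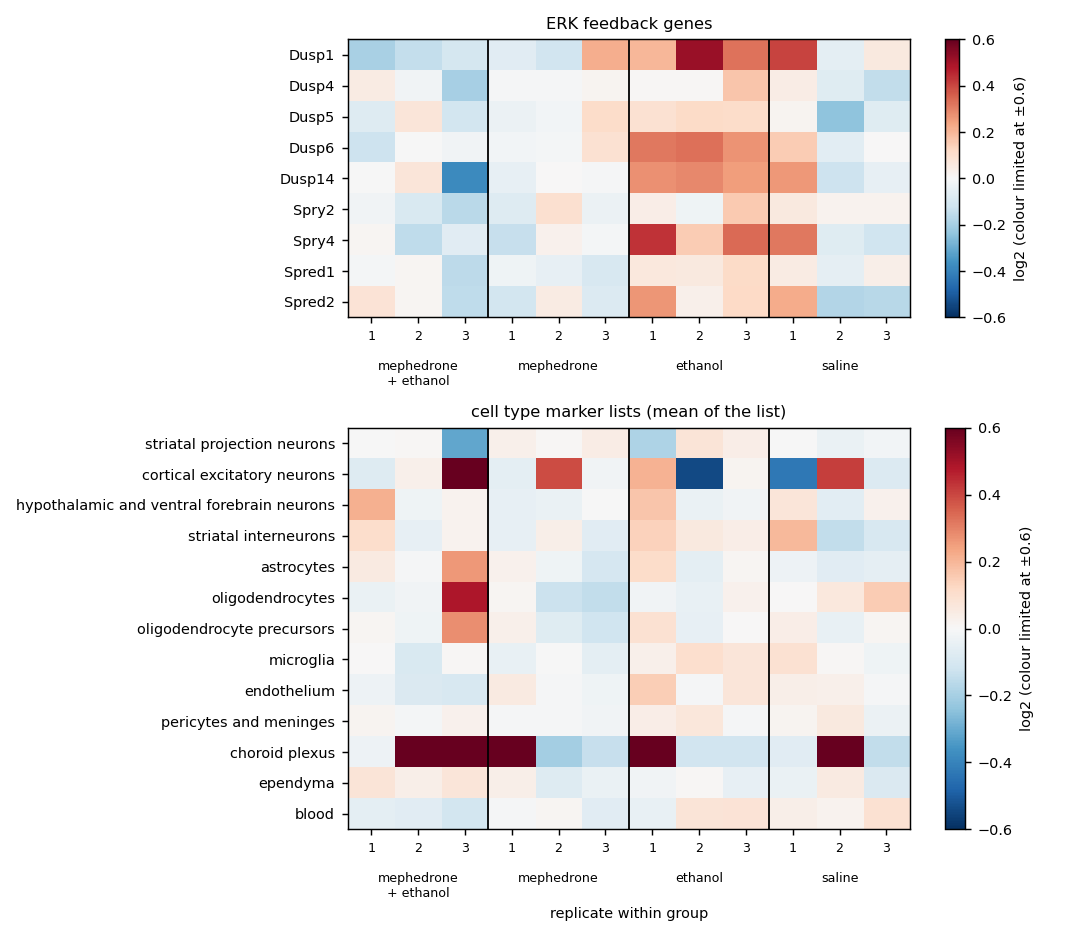
Centred log2 values of the 9 genes (rows) on the 12 arrays (columns, by group with mephedrone + ethanol at the left and saline at the right); the colour bar gives the log2 scale. The ethanol arrays have 9, 8 and 9 members above 0 and saline replicate 1 has 9, whereas mephedrone + ethanol replicate 3 and mephedrone replicate 1 have 0 members above 0.

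**Figure D5:**
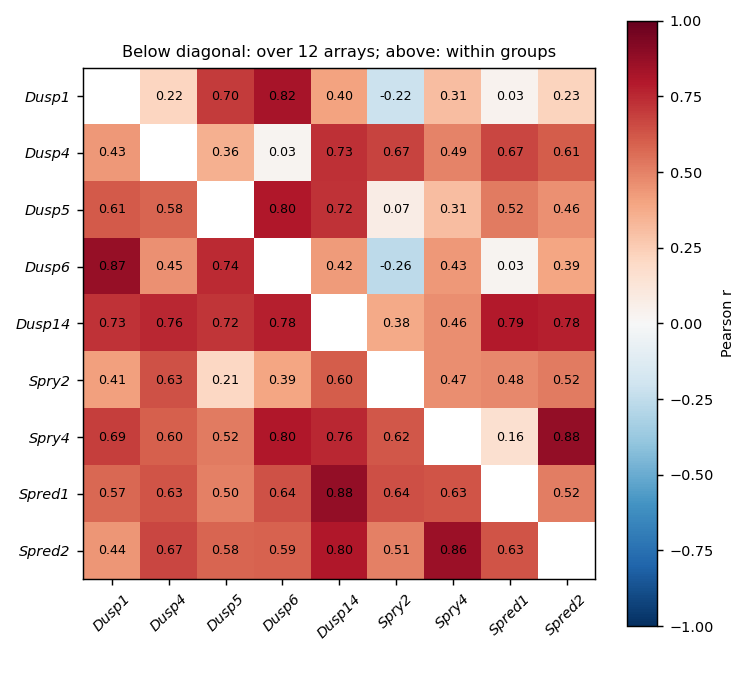
Pearson r between the 9 genes (rows and columns), below the diagonal over 12 arrays and above it after group means were removed; colour gives r. All 36 pairs are above 0 over the arrays and 34 of 36 within groups.

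Genes whose pattern was most like that of each member were listed by Pearson r over the 12 arrays, as a description. Dusp6 was most like Fos and Zbtb17 (both r = 0.94), Dusp14 most like Fosb and Adcy7 (both 0.96), Spry4 most like Nr4a3 (0.95) and Dnajb5 (0.94), and Dusp1 most like Arc (0.94) and Hoxb6 (0.92). Fos, Fosb, Arc and Nr4a3 are immediate early genes, transcribed within minutes of neuronal activity. Fos averaged -0.14 with mephedrone + ethanol, 0.0023 with mephedrone, 0.28 with ethanol and -0.030 with saline. Nr4a3 averaged -0.015 with mephedrone + ethanol, -0.12 with mephedrone, 0.59 with ethanol and 0.033 with saline. The nearest genes to the other members were Tm4sf5 and Frat2 for Dusp5 (0.94 and 0.91), Rgs20 and Pheta1 for Spred1 (0.94 and 0.92), Nkx2-1 and Sik3 for Dusp4 (0.91 and 0.88), Creld2 and E2f4 for Spred2 (0.91 and 0.90), and Sim1 and Dlgap2 for Spry2 (0.89 and 0.88). These points share arrays and the 4 treatments.

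Markers of other cell types also differed between these groups in their values. For mephedrone + ethanol against ethanol, 9 of 10 endothelial markers were below 0 (median -0.16), 8 at an unadjusted p under 0.05, and 0 passed after adjustment. Their mean lay between -0.097 and -0.028 on the mephedrone + ethanol arrays, between -0.028 and 0.054 on the mephedrone arrays, between -0.0052 and 0.15 on the ethanol arrays and between -0.0057 and 0.036 on the saline arrays. Cldn5, a tight junction gene of brain endothelium, was named after its values were seen. It differed by -0.41 (limma adjusted p = 0.0814) and passed in the mephedrone main effect (-0.30, 0.0333). Leaving out single arrays ended that call for 9 of the 12, with limma adjusted p-values up to 0.0997, while without saline replicate 1 Cldn5 passed between mephedrone + ethanol and ethanol (0.0459). All 10 microglial markers were below 0 (median -0.080), with a mean between -0.091 and 0.0093 on the mephedrone + ethanol arrays and between 0.029 and 0.10 on the ethanol arrays. Of 12 striatal projection neuron markers 10 were below 0 (median -0.10) and 0 had an unadjusted p under 0.05, whereas the 9 cortical (median 0.35), 9 choroid plexus (0.55) and 9 oligodendrocyte markers (0.14) were all above 0. Without both arrays that stood apart, 7 endothelial markers were lower and 1 higher at an unadjusted p under 0.05. At that level, 4 microglial markers (median -0.11) and 2 striatal projection neuron markers (median -0.077) were then lower. The cortical median was 0.17, the choroid plexus median 0.25 and the oligodendrocyte median -0.020. With the choroid plexus mean as a covariate, 4 members were lower at an unadjusted p under 0.05, Dusp6 at -0.35 and Dusp14 at -0.28. The part of endothelial and microglial content in the members' differences was not tested.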

How the data were processed

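Total RNA from 12 anterior striatum samples was hybridised to 1-colour Affymetrix whole-transcript arrays, per the labels' protocols. The authors deposited log2 values summarised with RMA, a method that corrects background and quantile-normalises probes, with GeneSpring GX 7.3.1 and build mm8 named in the labels and the submitters' processing notes. In the deposited table each probe set's log2 values are centred on their median over the 12 arrays, as tested on the file (largest absolute median 7.02e-07), so levels before centring are lost. Scanner intensities were not used here, and the number of arrays limits the precision.

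Of 28853 probe sets, 21789 had 1 symbol in the platform annotation, 1621 had several and 5443 were not listed there. Probe sets with 1 symbol were averaged into 19938 genes, with no filter on low values. limma 3.58.1 (R 4.3.3) fitted the group means with lmFit and eBayes on all arrays, with 8 residual and 3.43 prior degrees of freedom, and two-sided p-values were Benjamini-Hochberg adjusted over all genes at 0.05. Pairs of members were tested with permutation tests of 100000 resamples. The fit was run on simulated independent genes with changes larger than the members' in the mephedrone main effect. That run does not show how often changes of the members' size would be called. All 9 members are described. In each other pathway list, genes past the threshold or else the 2 with the smallest p in the mephedrone main effect were named, with Fos, Arc, Nr4a1, Kdr, Tek and Cldn5 added after their values were seen, and for each member the 2 genes most like it. Members and lists were chosen with earlier results of these data known. Replicate numbers were not taken as a pairing of the samples. Of 18 same-numbered pairs of arrays 7 had correlated deviations over 0.1 (median 0.027, range -0.28 to 0.43). Of 36 other-numbered pairs 13 did (median 0.026). Arrays also differed in tissue markers, so this check cannot settle whether samples were paired. No 2 arrays correlated above 0.342, so none was a copy. The alternatives were quantile normalisation, probe sets in place of genes, array weights, a robust variance model, only the groups compared, the replicate number as a block, a choroid plexus covariate, and leaving out arrays. Counts over the lists without both arrays that stood apart, and values of the named list genes without single arrays, were added after seeing the data.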

Additional observations from a re-analysis of the deposited data

How the results depend on the processing

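The count of members past the adjusted threshold was computed in 10 comparisons under up to 20 other settings, 196 counts in all, of which 193 were 0. The count was 1 in the other 3, each time Dusp6: with array weights for mephedrone + ethanol against ethanol (count 1, limma adjusted p = 0.0307) and for the mephedrone main effect (count 1, 0.0436), and without saline replicate 1 for mephedrone + ethanol against ethanol (count 1, 0.0323). Leaving out each array in turn gave 0 to 1 called members for mephedrone + ethanol against ethanol and 0 in the other comparisons. With the replicate block 0 members were called in any comparison, and Dusp6 was at -0.35 for mephedrone + ethanol against ethanol (limma adjusted p = 0.200). The cause of these changes was not tested. Of 1593 member differences recomputed, 1546 kept their direction and side of the threshold, 44 moved to the other side of 0 without being called in either setting, and 3 passed the threshold. Counts at an unadjusted p under 0.05 ranged from 4 to 7 lower for mephedrone + ethanol against ethanol, 3 to 6 lower for mephedrone against ethanol, 1 to 7 higher for ethanol against saline and 1 to 7 lower for the interaction. The matching shares of all genes were not computed. Dusp14 in mephedrone + ethanol against saline was 0.0065 without mephedrone + ethanol replicate 3, which decided its sign, and -0.13 with it. Over all genes, the mephedrone main effect called 23, with 2 to 356 under other settings. Mephedrone + ethanol against ethanol called 5, with 0 to 37. The high ends, 356 and 37, were with array weights, and 19 were called without saline replicate 1. The settings that called Dusp6 thus also called more genes in all than the main fit. Without both arrays that stood apart, however, the mephedrone main effect called 213 genes and 0 members. Signal over background could not be read from centred values.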
